A study of Lathyrus oleraceus with 4 samples.

Results

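Pea probes named by GenBank accessions were examined on an oligonucleotide chip that compared the shoot apical meristem (SAM) of garden pea with non-meristem tissue (NM). They represent pea sequences that were already in the public database, whereas the remaining probes were designed from sequences of 3 SAM cDNA libraries. The members are the probes whose name is neither a library clone name nor that of a blank spot, without 25 GenBank-named probes that were left out by name. They number 528 of the 2234 probes on an array, which also held 6 blank spots. The rule goes by name and sets no limit on a measured value, but all 25 probes left out are on the study's lists of changed transcripts.

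The plants were 10-day-old peas (Pisum sativum cv Torsdag) raised in a greenhouse. SAMs were cut out under a microscope without leaf primordia, about 80 SAMs for each RNA extraction. The NM was RNA of primary stem (no axillary meristems), lamina of mature leaves and primary roots (no root apical meristem or root hairs). There were 4 independent tissue collections, A to D, and each sector of the chip served as 1 array that received SAM and NM of a single collection. Sectors 1 and 3 held SAM labelled with Cy3 and NM with Cy5, and on sectors 2 and 4 the dyes were exchanged. The pooled NM limits what a value can tell, since a transcript lower in the SAM may come from any of the pooled parts. In these bulk samples, fewer cells of a type and less RNA per cell cannot be told apart.

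The SAM is a small dome of dividing, undifferentiated cells that gives rise to leaves, stems and flowers. Its cells replicate DNA and make new walls, but they have neither mature chloroplasts nor a developed vascular system. Stem, leaf and root hold differentiated cells that fix carbon, move sugar and water and produce defence compounds.

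Of the 528 members, 105 have an annotation in the sources used here, and the other 423 are given by accession only. The annotations come from the study's own lists of transcripts that differed between SAM and NM on these same arrays. Counts of calls among annotated members are therefore fixed in large part by that choice and are no independent evidence of a direction. This holds for the count of every functional list below. Of the annotated members 75.2% were called lower and 15.2% higher, against 1.4% and 1.7% of those without an annotation. Control probes that the chip may carry under accession-like names were not set apart. Several annotated probes have the same or related target names, such as 8 apyrase or ATP diphosphohydrolase probes, and probes of near-identical transcripts may take up each other's RNA, so they are not independent measurements. The probe sequences were not used here.

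Values are log2 ratios of SAM over NM, with values above 0 for more signal from SAM RNA, after normalization within each array by a robust spline that sets the bulk of all probes near 0 at every intensity. Calls used the adjusted p of limma with a threshold of 0.05, together with a ratio above 1.3 for higher in the SAM and below 0.7 for lower. The array tables number the channels without naming dyes, and the first was read as Cy5. This direction is likely rather than stated. Its basis is that all 105 annotated members then lie on the side of the published list that holds them, against 0 of 105 with the channels exchanged. The sample labels name Cy3 first, and if the channels followed them, every direction given here would turn round. Then 99 members would be called higher (18.8%, against 8.95% of all probes) and 20 lower (3.79%, against 8.28%), the counts differing because the limits of 1.3 and 0.7 are not symmetric. The median intensity of the members lay between 157.5 and 707 over arrays and channels, that of the blank spots between 43.8 and 157, and 0 members were as dim as the brightest blank of any array and channel. Under 3 times the blank median were 184 members in the first channel of sector 2 (SAM) and 163 in that of sector 3 (NM). The other channels held 0 to 55 such members. No background was subtracted, and SAM intensities on sector 2, such as 111 for Drm3, stand near a blank median of 43.8. The 4 arrays limit the precision of every ratio. Ratios were not scaled between arrays, and their SD over all probes was 0.53, 0.50, 0.67 and 0.68 on sectors 1 to 4. Statements on which sector gave the largest or smallest ratio are to be read beside these spreads.

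The labels were checked with markers that the study also lists as changed, which makes them a check of labels only. All 5 probes for dividing cells were higher in the SAM, with sector medians between 0.62 and 1.33, and all 4 green leaf probes were lower, with sector medians between −3.32 and −1.54. The summed intensity of the dividing-cell probes was 2689 to 16853 for SAM and 1441.5 to 2740 for NM. That of the green leaf probes was 780 to 4121.5 for SAM and 4770.5 to 17902 for NM, and 0 of the 9 markers were at or under the brightest blank. With the channels exchanged, all 5 dividing-cell probes would lie on the NM side and all 4 green leaf probes on the SAM side.

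Transcripts represented by the members were more often lower than higher in the SAM. Of the 528, 85 were called lower (16.1%), against 7.34% of all probes tested. In the other direction, 23 were called higher (4.36%), against 9.76% of all probes. The remaining 420 were not called, and 21 of these had an adjusted p under 0.05 with a ratio inside the limits. Among the 1681 probes of the SAM libraries the split ran the other way, with 189 higher (11.2%) and 61 lower (3.63%). This differed between the libraries. Of the 1095 probes of the normalized library, 4.75% were higher, a share near that of the members, and 3.38% were lower. In the subtracted library 21.6% were higher and 1.01% lower, and in the standard library 25.2% and 7.24%. The split of the members depends on which probes set the normalization curve. With the curve drawn through GenBank-named probes alone, which moves the median of all probes to 0.11, 44 members were higher (8.33%, against 16.2% of all probes) and 57 lower (10.8%, against 5.01%). The lower share of the called members was then 56.4% in place of 78.7%, while members remained called lower more often, and higher less often, than all probes. The 25 probes left out held 6 higher and 18 lower, and all 25 are on the study's lists, so the shares of the members exclude these calls.

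The distribution of the members as a whole lay slightly below 0. Their median log2 ratio was −0.08, with quartiles of −0.31 and 0.01, whereas all probes had a median near 0 at −0.004 and the library probes one of 0.02. Of the members, 385 (72.9%) had a mean below 0, against 51.2% of all probes. The member medians on sectors 1 to 4 were −0.08, −0.08, −0.11 and −0.15. The lowest of these was on sector 4 and none was above 0. The sign of this median follows the scaling, since it was 0.022 with the curve through GenBank-named probes and 0.19 without normalization, where all probes had medians of 0.11 and 0.27. The median of the members minus that of all probes lay between −0.12 and −0.07 under every alternative that kept the channel order. Under these, 0 of the called members changed sign. A single sign on all 4 arrays was found for 211 members (40.0%), against 34.7% of all probes, with 165 of them below 0 and 46 above 0. Every one of the 108 called members kept one sign on all 4 arrays, which a call from so few arrays largely requires and which is no added evidence.

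For most members, as for most probes of the chip, the arrays bounded the difference. The median SD of a member over the 4 arrays was 0.20, and the median standard error was 0.10, both on the log2 scale. The 95% confidence interval of 308 members (58.3%) lay wholly within ratios of 0.7 to 1.3, against 59.8% of all probes. These 308 members are 73.3% of the 420 members not called. Calls were more frequent at higher signal. When all probes were cut by mean intensity into 4 classes of nearly equal size, in the dimmest 1 of 136 members was lower and 0 were higher, and in the brightest 38 of 136 were lower (27.9%) and 17 were higher (12.5%). Calls among all probes rose with signal as well, from 0.179% lower and 0.358% higher in the dimmest class to 15.6% lower and 22.9% higher in the brightest.

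The highest member was Y16796, the proliferating cell nuclear antigen (PCNA), the sliding clamp that holds DNA polymerase on its template during replication. Its SAM intensities on sectors 1 to 4 were 1503, 1040, 5044.5 and 5569.5, beside NM intensities of 415, 501, 464 and 689. The SAM signal was above the NM signal on every array, although intensities of different arrays and dyes are not on 1 scale before normalization. The log2 ratios were 1.60, 1.80, 2.84 and 1.76, with sector 3 apart from the rest. The mean ratio was 4.00 (log2 2.00, SD 0.57, n = 4, adjusted p = 0.000442).

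Other parts of the replication and gene expression machinery were also among the members higher in the SAM. Of 10 annotated probes of this kind, 6 were higher and 4 lower. AY371199, the mini-chromosome maintenance protein MCM7, a subunit of the replicative helicase, had log2 ratios of 0.70, 0.45, 0.95 and 0.99 on sectors 1 to 4 (mean 0.77, SD 0.25, adjusted p = 0.00235). Both replication probes were above 0 on all 4 arrays, and the ratio of MCM7 was below that of PCNA on each of them.

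AB021873, a ribosome-sedimenting protein, reached 1.32, 1.84, 1.91 and 1.37 (mean 1.61, adjusted p = 0.000195). Its SAM intensities of 1451, 993.5, 3101 and 3732 stood beside NM intensities between 471 and 645. X98738, the DNA-binding protein PD1, had a mean of 0.91 ± 0.38 (SD, n = 4), and its log2 ratios of 1.27 and 1.21 on sectors 3 and 4 were above those of 0.55 and 0.61 on sectors 1 and 2. A DEAD box RNA helicase (AY167671, mean 0.82, adjusted p = 0.00196) and the glycine-rich RNA-binding protein PsGRBP (U81287, mean 0.60, adjusted p = 0.00526) act on RNA and were higher as well.

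The 4 lower probes of this list are of another kind. Y14561, a translation elongation factor of the chloroplast, had log2 ratios of −1.16, −0.27, −1.81 and −1.86. Its values on sectors 3 and 4 were far below that on sector 2, and without sector 4 its call was lost (mean −1.08, adjusted p = 0.0533). The zinc finger protein AF160977 (mean −0.87), the ubiquitin PUB4 (L81142, mean −0.75) and a Tudor domain protein (AB078603, mean −0.52) were lower too. The Tudor domain call was lost without sector 2 or without sector 4, when the mean became −0.50 or −0.43 and no longer passed the limit on the ratio.

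Cell wall transcripts went both ways, with 4 of 9 higher and 5 lower. The endo-beta-glucanase EGL2 (AB032830), of a class of enzymes that cut wall glucans, was the third highest annotated member. Its SAM intensities were 1597, 979, 5164 and 7922 beside NM intensities of 484, 727, 703 and 821.5. The log2 ratios were 1.52, 1.11, 2.34 and 1.92 (mean 1.72, SD 0.53, adjusted p = 0.000609), and no array came near 0. Probes annotated as a fucosidase (AJ011398, mean 0.82) and the fuc gene (X82595, mean 0.83) had closely similar means. They are on this list by name only, and an enzyme activity of their products was not tested. The hydroxyproline-rich glycoprotein PsHRGP1 (U78952, mean 0.58) was the least variable of the 4, with ratios from 0.48 to 0.67.

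Another glucanase, KORRIGAN (AJ621355), a membrane-bound enzyme needed for cellulose synthesis, was lower in the SAM with log2 ratios of −1.04, −1.29, −1.17 and −1.68. These values did not overlap with those of EGL2, which were all above 0, as calls in opposite directions largely require. The extensin AF155232, a structural wall protein, was among the 5 lowest annotated members. It had SAM intensities of 399, 159, 525 and 723 and NM intensities of 1413, 1948.5, 1429 and 2944.5. Its log2 ratios were −2.11, −2.76, −2.15 and −3.16 (mean −2.55, adjusted p = 0.000156), all on the NM side. A root nodule extensin (AF397032) was lower at a mean of −1.25, and its ratio was −2.26 on sector 4 but no lower than −1.24 elsewhere. The enzyme EXGT1 that rejoins xyloglucan chains (AB015428, mean −0.64) and the UDP-glucuronate carboxy-lyase uxs1 (AB059568, mean −0.67) were lower by less, and the call of uxs1 was lost without sector 2 (mean −0.53, adjusted p = 0.0956) or without sector 4 (mean −0.55, adjusted p = 0.145).

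X67427, annotated to the family of protease inhibitors, lipid transfer proteins and seed storage proteins, was the second highest member. SAM intensities were 2008, 663.5, 4817 and 11062, against 501, 586, 532.5 and 870.5 for NM. On sector 2 the channels were close and the log2 ratio was 0.98, whereas the other arrays gave 1.87, 2.59 and 2.26 (mean 1.93, SD 0.70, adjusted p = 0.00102). It was the only one of 13 annotated defence and stress members to be higher, and the other 12 were lower. Members are on this list by annotation, and a role of each in defence or stress was not tested.

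The defence and stress members that were lower ranged in mean from −2.42 to −0.54. The pathogenesis-related protein PR4A (AF137351) had the largest spread of any annotated member, an SD of 1.42. Its log2 ratios were −1.15 and −1.26 on sectors 1 and 3, with SAM in Cy3, and −3.46 and −3.83 on sectors 2 and 4, with SAM in Cy5. The ratios thus split by dye, with a fitted dye coefficient of −1.22 on the log2 scale of Cy5 over Cy3 (adjusted p = 0.0196). No other member had an adjusted p below 0.05 for the dye, and 5 of all probes did (0.224%). AF137351 remained on the NM side in both dye orientations (mean −2.42, adjusted p = 0.00762).

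An ultraviolet-B-inducible glucanase (AY065658, log2 ratios −1.62, −2.04, −1.48 and −2.25) and an ultraviolet-B-repressible protein (AY065654, −1.66, −1.16, −2.54 and −2.05) had the same mean of −1.85. A non-specific lipid transfer protein (Y14560), a small protein of the outer cell layers that carries lipids, had SAM intensities of 1367 to 5459 and NM intensities of 4561.5 to 9269. Its mean was −1.57 ± 0.39 (SD, n = 4). The pea disease response gene pI230 (X52225, mean −0.85), monodehydroascorbate reductase, which regenerates ascorbate (AY662655, mean −0.78), the hypersensitive response homologue hsr203J (AB026296, mean −0.73) and heme oxygenase HO1 (AF276230, mean −0.67, SD 0.10) were lower to a smaller extent. Sector 4 gave the lowest ratio for 10 of the 13 probes of this list, and it also had the largest SD over all probes (0.68). Another pathogenesis-related protein (AF115574) lost its call without sector 2 (mean −0.54, adjusted p = 0.126) or sector 4 (mean −0.49, adjusted p = 0.163), and a type 2 metallothionein (AB176565, mean −0.68) did so without sector 3 (mean −0.70, adjusted p = 0.061) or sector 4 (mean −0.44, adjusted p = 0.0636). The UDP-glucuronosyltransferase AF034743 lost it without sector 1, 3 or 4, with adjusted p from 0.0613 to 0.115, and the glutathione S-transferase AB087837 without sector 4, when its mean of −0.49 was inside the limit.

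All 3 annotated short-chain alcohol dehydrogenases, a pea family known for its response to ultraviolet-B light, were lower in the SAM. They were annotated through the study's list of lower transcripts, which largely fixes this count. The lowest annotated member of all was SAD-C (AF097651). Its SAM intensities were 402, 123, 471 and 782.5, beside NM intensities of 1771, 1769.5, 2125.5 and 5301.5. The log2 ratios were −2.36, −2.91, −2.86 and −4.03, which is a mean NM over SAM ratio of 8.23 (log2 −3.04, SD 0.70, adjusted p = 0.000191). SadA (AB087840) had −1.57, −1.65, −1.76 and −3.01, and AF053638 had −1.62, −1.28, −0.96 and −2.54. All 3 were lowest on sector 4 and the order of their means was kept on sectors 2 to 4.

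Enzymes of phenylpropanoid and isoflavonoid synthesis were lower or not called, with 6 of 8 lower, 0 higher and a list median of −0.60. Legumes use this pathway to make antimicrobial isoflavonoids such as pisatin, the phytoalexin of pea. Isoflavone synthase (AF532999, CYP93C18), which opens the isoflavonoid branch, had log2 ratios of −1.32, −2.13, −2.08 and −3.47 (mean −2.25, SD 0.89, adjusted p = 0.00135). Its NM intensity on sector 4 was 2872, against 550 to 1035 on the other arrays, while the SAM intensity lay between 109.5 and 542.

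The later steps of the branch had means closer to 0. Sophorol reductase (AF107404), a late enzyme of pterocarpan synthesis, averaged −1.47 ± 0.50, and 6a-hydroxymaackiain methyltransferase (U69554), which makes pisatin, averaged −1.22 ± 0.49 (SD, n = 4). NADPH-cytochrome P450 reductase (AF002698), which feeds electrons to the P450 enzymes, had nearly the same ratio on every array, −0.65, −0.63, −0.65 and −0.62. Cinnamic acid hydroxylase CYP73A9, an early enzyme of the general pathway, was represented by a probe for the gene (AF175277, mean −0.55, called) and another probe (U29243, mean −0.48, not called). The difference between these probes was smaller than the SD of either, and the limit of 0.7 lay between them. AF175277 lost its call without sector 3 (mean −0.51), and the wound-inducible P450 CYP82A1 (AF175278, mean −0.56) lost its call without sector 4 (mean −0.46). Chalcone isomerase (U03433), which forms flavanones, had a mean of −0.42 and was not called.

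Lipoxygenases and germin-like proteins formed smaller groups in the same direction. Of the 3 oxylipin enzymes, lipoxygenase LoxN3 (AF098270, mean −1.13, adjusted p = 0.000818) and Lox1 (U84198, mean −0.67, adjusted p = 0.0119) were lower, and an alpha-dioxygenase (AJ784963, mean −0.47) was not called. Lipoxygenases oxidise fatty acids at the start of oxylipin and jasmonate synthesis. The germin-like proteins 1 (AJ250832, mean −1.24), 3 (AJ311624, mean −0.81) and 2a (AJ250833, mean −0.56), which belong to a family of extracellular proteins, were all lower. The call of protein 2a was lost without sector 2 (mean −0.56, adjusted p = 0.0778) or sector 4 (mean −0.38, adjusted p = 0.0912).

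Apyrases, which hydrolyse nucleoside tri- and diphosphates, were lower in 7 of 8 cases, with means between −0.97 and −0.52 and a list median of −0.75. All 8 are on the study's list of lower transcripts, which largely fixes this count. AB027616 had log2 ratios of −1.18, −0.81, −1.09 and −0.80 and AB038669 ranged from −1.05 to −0.74. In both, sectors 1 and 3 were lower than sectors 2 and 4. The S-type apyrase AB027615, the 1 member of the list that was not called, had −0.97, −0.14, −1.31 and −0.23 (adjusted p = 0.0553). Its ratios split by dye, with an unadjusted p of 0.00132 and an adjusted p of 0.104 for the dye coefficient. Sector 2 gave the ratio nearest to 0 in 7 of the 8 apyrase probes. AB022319 (mean −0.61) lost its call without sector 4 (mean −0.50), and AB050112 (mean −0.52) lost it without sector 1, 3 or 4, with adjusted p between 0.061 and 0.0673.

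Photosynthesis and photorespiration members were all lower, 6 of 6, with a list median of −1.45. All 6 were annotated through the study's list of lower transcripts, which largely fixes this count. A probe for the glycine decarboxylase complex (AM040954), which releases carbon dioxide from glycine in photorespiration, had SAM intensities of 573, 262, 1385.5 and 1916 and NM intensities of 2599, 745.5, 8873 and 4096. Its log2 ratios were −2.22, −0.55, −2.99 and −2.47 (mean −2.06, SD 1.06, adjusted p = 0.00438). The gene for the T protein of that complex (AJ222771) had −1.68, −0.62, −2.32 and −2.51.

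Both probes thus had their weakest ratio on sector 2, as did all 6 of the list. Sector 2 also had the smallest SD over all probes, 0.50 against 0.53 to 0.68 on the others. Over the members alone it did not, with an SD of 0.56 on sector 2 and 0.54 on sector 1. The ferredoxin-NADP+ reductase probe AF321528, for an enzyme that reduces NADP+ with electrons from photosystem I, had −1.73, −0.70, −2.54 and −2.21, and AF057182, of the same enzyme, averaged −1.12. CP12 (Z72489), a small regulator of the Calvin cycle, averaged −0.99, and ribulose-5-phosphate-3-epimerase (AF255725), a Calvin cycle enzyme, averaged −0.91 and lost its call without sector 4 (mean −0.86, adjusted p = 0.0646). The list median was −0.54 on sector 2 and lay between −1.95 and −1.34 on the others. The 4 green leaf markers moved with it, being weakest on sector 2 in 4 of 4 with a median of −1.54 there, and their part in the result was not tested.

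All 3 annotated water channels were lower in the SAM, with means from −2.97 to −0.99. They too are annotated from the study's list of lower transcripts. The plasma membrane intrinsic protein AJ243307, an aquaporin of the cell surface, had SAM intensities of 573, 228.5, 1054.5 and 1124 and NM intensities of 3578, 3266.5, 6781.5 and 3757. Its log2 ratios were −2.60, −3.16, −3.10 and −3.02 (mean −2.97, SD 0.25, adjusted p = 1.16e-05), a mean NM over SAM ratio of 7.83. The tonoplast intrinsic protein AJ243309, which lets water through the vacuole membrane, had −1.32, −2.13, −1.70 and −2.24. Its NM intensities were 5896.5 to 14170, and in the SAM it still gave 1020 to 9689. The plasma membrane protein pip1-2 (AJ548795) averaged −0.99 ± 0.16 (SD, n = 4). Its call was lost with arrays only centred (mean −1.02, adjusted p = 0.056) and with the curve through GenBank-named probes (mean −0.39), under which the tonoplast protein AJ243309 kept its call at −0.97. The 4 log2 ratios of AJ243307 all lay below those of pip1-2, although both are plasma membrane aquaporins.

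All 5 members annotated for sugar metabolism and transport were lower, and all 5 are on the study's list of lower transcripts. Sucrose synthase, which splits sucrose in tissues that draw on it, was represented by AJ012080, with log2 ratios of −1.37, −1.89, −1.43 and −2.19, and by the nodule-enhanced form AF079851, with −0.79 on sector 1 and −1.78, −1.67 and −1.79 on the others. The adjusted p was 0.000259 and 0.000781. Vacuolar acid invertase (AY112702, mean −0.85), ADP-glucose pyrophosphorylase, which makes the substrate of starch synthesis (Y08728, mean −0.67), and the sucrose transporter SUT1 (AF109922, mean −0.59, SD 0.12) were lower by less.

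Of the 5 annotated members linked to dormancy, senescence or ripening, 4 were lower in the SAM, 3 of them genes named for dormancy of axillary buds. Not every such gene on the chip was lower, since AB031227, which the study names PsAD1 and which is not a member, was higher (mean 2.40, SD 1.39, adjusted p = 0.00734). Drm3 (AF515795) had SAM intensities of 594, 111, 835.5 and 787.5 and NM intensities of 4176, 1528.5, 2921 and 3422. Its log2 ratios of −2.72, −2.78, −2.40 and −3.31 gave a mean of −2.80 (SD 0.38, adjusted p = 7.02e-05), an NM over SAM ratio of 6.98. Drm4 (AF515796) was lower by less, with log2 ratios between −1.82 and −0.60, and its lowest value was above the highest of Drm3.

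PsAD2 (AB031228), another gene first described in dormant pea buds, had −1.98, −2.95, −2.56 and −1.99, and a ripening-related protein (AY371200) had −1.71, −1.23, −2.58 and −2.72. The senescence-associated protein ssa-15 (AB049724) was the 1 of these 5 members that was higher, at 0.84, 0.70, 0.91 and 0.13. Sector 4 was close to 0, and the call was lost without sector 1 (mean 0.58, adjusted p = 0.0503).

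Proteases were lower in 4 of 5 cases. The serine carboxypeptidases CP-A (AJ251969, mean −1.06) and CP-B (AJ251970, mean −1.10), a cathepsin B-like protease (AJ251534, mean −1.10) and a further protease (AJ278699, mean −0.96) had means between −1.10 and −0.96. A cysteine protease (AJ251828) was higher at a mean of 0.49 and lost its call without sector 3 (mean 0.39, adjusted p = 0.061) or sector 4 (mean 0.52, adjusted p = 0.0517).

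Hormone and flowering members were mixed, with 2 of 8 higher, 3 lower and 3 not called. LATE FLOWERING (AY343326), the pea relative of TERMINAL FLOWER 1 that delays flowering, had log2 ratios of 0.42, 0.39, 0.76 and 0.92 (mean 0.62, adjusted p = 0.00724). LKB (AF325121), an enzyme of brassinosteroid synthesis, had 0.15, 0.80, 0.54 and 1.14. Both were above 0 on all arrays, and LKB lost its call without sector 2 (mean 0.61, adjusted p = 0.071) or without sector 4 (mean 0.50, adjusted p = 0.0877).

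CONSTANS-LIKE a (AY830921), of a family that includes regulators of flowering by day length, had −0.92, −0.75, −1.77 and −1.40. A His-Asp phosphotransfer protein (AJ831475), a carrier of phosphate in cytokinin-type signalling, had −1.09, −0.93, −1.21 and −0.98, with an SD of only 0.13. The isovaleryl-CoA dehydrogenases AJ010945 (mean −0.61, called) and AJ010946 (mean −0.50, not called) differed by less than the SD of either. AJ010945 lost its call without sector 1, 3 or 4, with adjusted p from 0.0597 to 0.0892. Nine-cis-epoxycarotenoid dioxygenase, the enzyme that commits carotenoids to abscisic acid synthesis (AB080194, mean −0.49), and a putative IAA-related protein (AF026531, mean −0.49) were not called because their ratios were above 0.7.

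Signalling members were lower in 4 of 6 cases, namely the phospholipases C Y15253 (mean −0.85) and AF280748 (mean −0.66), MAP kinase 3 (AF153061, mean −0.66) and a 14-3-3-like protein (AJ238681, mean −0.57). The last was lost without sector 4 (mean −0.46). A calcineurin B-like protein, which senses calcium (AY883569, mean −0.46), and PsRSH1 (AB096105, mean −0.50), of the family that makes the alarmone ppGpp, were not called.

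Among the other metabolic members, the S-adenosylmethionine synthetase SAMS-2 (AB087843), which makes the main methyl donor of the cell, stood lowest with −1.70, −1.76, −1.93 and −2.31 (mean −1.92, adjusted p = 0.00012). The V-type ATPase subunit A (AY037143, mean −0.70), the putative S-adenosyl-L-methionine protein AY166630 (mean −0.58) and a mitochondrial nucleoside diphosphate kinase (AF191098, mean −0.58) were lower, the last not without sector 4 (mean −0.51). NADP-dependent isocitrate dehydrogenase (AY509880) had −0.40, −0.47, −0.08 and −1.06 and was not called (mean −0.50, adjusted p = 0.0593). Without sector 4 its mean was −0.32. Acetohydroxy acid isomeroreductase (AJ251333), of branched-chain amino acid synthesis, was higher at a mean of 0.54.

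The 4 annotated members with no clear role were lower. The hypothetical protein Y11824 had a spread second only to that of PR4A, with log2 ratios of −2.34, −0.87, −3.38 and −3.05 and an SD of 1.12. Its weakest value was on sector 2, where the SD over all probes was also smallest, although that over the members was not. The embryo-abundant protein EMB (AF369889) hardly varied, with log2 ratios between −1.03 and −0.91. Peaci11.8 (U24398, mean −0.69) had −1.44 on sector 3 against −0.53 to −0.29 on the others, and without sector 3 its mean was −0.44 and it was not called. It was also not called without sector 2 or sector 4 (adjusted p = 0.0559 and 0.0943).

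In all, 16 of the 105 annotated members were higher, 79 lower and 10 not called. All 10 uncalled members are on the study's list of lower transcripts and had means below 0, and 8 of them passed the adjusted p but not the limit on the ratio. The 423 members without an annotation held 7 higher, 6 lower and 410 not called, with a median of −0.05, a difference that the origin of the annotations fixes. The lowest member of all, AF053639, was among them. Its SAM intensities were 393, 134, 480 and 665 beside NM intensities of 1717, 2141.5, 2220 and 4065.5, and its log2 ratios were −2.37, −3.13, −2.89 and −3.80 (mean −3.05, adjusted p = 0.000144). AJ222979 was the next lowest of the unannotated members at a mean of −0.98. The highest of these were AB021872, with a mean of 1.40 ± 0.27 (SD, n = 4, adjusted p = 0.000257), and AJ012750, with a mean of 0.83 ± 0.44 (SD, n = 4, adjusted p = 0.00849).

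The arrays did not weigh equally in these results. Over all probes the SD was larger on sectors 3 and 4 (0.67 and 0.68) than on sectors 1 and 2 (0.53 and 0.50). Among the 85 members called lower, the most negative ratio was on sector 4 for 47, on sector 3 for 22, on sector 1 for 12 and on sector 2 for 4. The ratio nearest to 0 was on sector 2 for 37 and on sector 1 for 32. Among the 23 called higher, sector 3 gave the highest ratio for 13. Without sector 4, 68 members were called lower (12.9%) and 20 higher (3.79%), beside 5.91% lower and 7.52% higher of all probes, so calls fell among all probes too. The calls made without it were all among the members called with it. Of the 99 named members that were called, 20 lost the call when some array was left out.

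Other scalings ended some of the named calls. With the curve through GenBank-named probes, 26 of the 99 calls were lost, all of members lower in the SAM, with means between −0.53 and −0.27 under that curve. They were the Tudor domain protein, ubiquitin PUB4, EXGT1, uxs1, NADPH-cytochrome P450 reductase, CYP82A1, CYP73A9 (AF175277), AJ010945, the apyrases AB022319 and AB050112, AF115574, pI230, AB087837, the metallothionein AB176565, HO1, germin-like protein 2a, SUT1, pip1-2, MAP kinase 3, phospholipase C AF280748, the 14-3-3-like protein, AY166630, AF191098, the nodulin-like protein DQ181627, Peaci11.8 and AJ222979. The same curve kept the calls of the lipid transfer protein Y14560 at −0.80 and the cathepsin B-like protease at −0.69, both nearer to 0, and of PsGRBP at 1.01, PsHRGP1 at 1.05, the fuc gene at 1.31 and acetohydroxy acid isomeroreductase at 1.06, all farther from 0.

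With arrays only centred on their median, 20 calls were lost, with adjusted p from 0.0531 to 0.512. Of members higher in the SAM these were PsGRBP, LATE FLOWERING, LKB, PsHRGP1, the fuc gene, the cysteine protease AJ251828, acetohydroxy acid isomeroreductase and AJ012750. Of members lower in the SAM they were PUB4, uxs1, AF115574, pI230, AB087837, AB176565, AF034743, germin-like protein 2a, AF255725, pip1-2, the cathepsin B-like protease and the 14-3-3-like protein. The deposited log2 ratios ended the calls of the Tudor domain protein (mean −0.51) and AB087837 (mean −0.51). Without any normalization within arrays, 20 of the 99 calls were kept, namely PCNA, AB021873, EGL2, X67427 and AB021872 among the higher, and extensin AF155232, SAD-C, sadA, isoflavone synthase, PR4A, AY065654, AM040954, AJ243307, AJ243309, PsAD2, Drm3, AY371200, SAMS-2, Y11824 and AF053639 among the lower.

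Agreement between arrays also followed the dyes. Across the 528 members, which are not independent replicates, the Pearson correlation of log2 ratios was 0.887 between sectors 1 and 3 and 0.87 between sectors 2 and 4, which share a dye orientation. Between sectors of opposite orientation it lay between 0.682 and 0.803. Among the 420 members that were not called, it was 0.585 and 0.539 within an orientation and between −0.19 and 0.146 across orientations. Over the uncalled members together, the ratios were thus correlated between arrays of the same dyes and little or not between the others. A call needs ratios that agree over all 4 arrays, and the choice of uncalled members removes such probes. The low values across orientations therefore follow in part from that choice. Of the 420 uncalled members, 92 (21.9%) had a dye effect at an unadjusted p under 0.05 and 0 after adjustment. Over all members the unadjusted count was 115 (21.8%), beside 23.1% of all probes. If no probe had a dye effect, a share of about 0.05 would pass this unadjusted limit. The 0 after adjustment, from so few arrays, does not show that dye effects were absent. With a term for the dye in the model, 25 members were higher (4.73%, beside 10.1% of all probes) and 88 lower (16.7%, beside 7.52%), and all 108 members called before were among them. Position on the chip made little difference, with member medians of −0.08 in columns 1 to 28 and −0.09 in columns 29 to 56.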

How the data were processed

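The authors hybridized SAM and NM RNA to a custom CombiMatrix oligonucleotide array, scanned it and quantified the spots, and deposited 1 intensity for each spot in each channel, neither normalized nor accompanied by a background value. Versions of that software are not given in the sources used here. A further deposited table holds log2 ratios (first channel over second) that the authors normalized within and scaled between arrays. Set against the intensities, these log2 ratios equalled a global loess with between-array scaling to within 3.17e-08, so only their dye direction is unstated.

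From the intensities, blanks were left out, and 2234 probes were normalized by the robust spline of limma 3.58.1 (R 4.3.3) without background subtraction and fitted with lmFit and eBayes, with 1 coefficient per probe and each array signed by its dye orientation. The empirical Bayes prior had an SD of 0.21 with 4.41 degrees of freedom. P-values were adjusted by Benjamini-Hochberg over all 2234 probes. The array is the pair of the tissues. The sample label of 1 array has no number, and it was taken as sector 1 because the others are numbered 2 to 4. The procedure was tested on simulated data.

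Members and lists were chosen with earlier results of these data known. Named are the annotated members by functional list, the 5 highest and 5 lowest of them, the 3 with the largest SD, those not called, and the 2 highest and 2 lowest called members without annotation. Alternatives were other normalizations, the deposited log2 ratios, blank subtraction, a dye term, omission of dim probes, the adjusted p alone, each array left out and, added after seeing the data, the exchanged channel order. A RefSeq gene table matched 0 of the accessions. All 4 sample columns of the log2 table were mapped, and no columns of the authors' comparisons were used.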

Additional observations from a re-analysis of the deposited data

Results flagged for a closer look

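Of the 109 named members, 4 had 1 array apart from the other arrays by a gap that chance gives in about 1 of 20 groups. The log2 ratio of PCNA (Y16796) was 2.84 on sector 3 and 1.60 to 1.80 on the others. That of the zinc finger protein AF160977 was −1.29 on sector 3 and −0.75 to −0.69 elsewhere. For the short-chain alcohol dehydrogenase sadA (AB087840) it was −3.01 on sector 4 and −1.76 to −1.57 elsewhere, and for the nodule-enhanced sucrose synthase (AF079851) −0.79 on sector 1 and −1.79 to −1.67 elsewhere. All 4 were called with every array left out in turn.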

How the results depend on the processing

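With all 4 arrays, 23 members were higher and 85 lower, with a median of −0.08. Centring each array on its median, without a curve, left 12 higher and 72 lower. With no normalization within arrays, 5 were higher and 15 lower, and the median of the members was 0.19 beside 0.27 for all probes. A curve through the GenBank-named probes alone gave 44 higher and 57 lower, and a median of 0.022. Without the dimmest 0.25 of probes the median of the 392 members left was −0.13, with 23 higher and 84 lower. Leaving out each array in turn gave 20 to 22 higher, 68 to 89 lower and a median from −0.10 to −0.08. The other alternatives in the same channel order kept both counts within 1.5 times, and with the adjusted p alone 25 were higher and 104 lower. Of the 109 named members, 0 changed sign under any alternative that kept the channel order. Calls were lost for 79 without normalization, 26 with the curve through GenBank-named probes, 20 with centring and 18 without sector 4, and the cause was not tested. Members in the dimmest class of intensity limit what these arrays can call, since 1 of 136 passed there. Each ratio is taken within an array, so the fit is itself paired by tissue collection. Reading the first channel as Cy3, an alternative added after seeing the data, gave 99 higher, 20 lower and a median of 0.0821.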
